A study of Mus musculus with 3 samples.

Results

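Integrins and laminins are the receptors and ligands by which an epithelium holds on to its basement membrane, and 36 such genes were followed through 3 single-cell libraries of mouse cornea and limbus. The genes were taken by symbol (Itga and Itgb subunits, Lama, Lamb and Lamc chains) and made up 36 of the 32285 genes counted: 18 integrin alpha subunits, 8 beta subunits and 10 laminin chains. Genes with similar symbols that are not subunits (Itgb1bp1, Itgb3bp and Itgbl1) were left out, as was Itgb2l, whose symbol did not meet the naming rule. The naming rule uses symbols alone, though the genes were chosen with earlier results of these data known.

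The study compared 3 states of mouse tissue, with 1 droplet library for each. The first was not injured. The second was injured with nitrogen mustard (NM, an alkylating agent that damages DNA) and given saline. The third was injured with NM and given losartan (a blocker of the angiotensin II type 1 receptor). The title of the uninjured library names wt, while the titles of the injured libraries name no genotype. No transgene or deletion is named in the labels. The number of animals per library, age, sex, the time after injury and the dose and route of losartan are not given in the sources used here. Tissue was freed of lens, retina and iris and digested with liberase and then trypsin, enzymes that cut the matrix and the surface proteins studied here but not RNA.

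Each integrin pairs an alpha with a beta subunit, and each laminin joins an alpha, a beta and a gamma chain. In corneal epithelium the Itga6 and Itgb4 subunits form the hemidesmosome receptor, which anchors basal cells through plectin and keratins to the laminin that holds the Lama3 and Lamb3 chains; Itga3 with Itgb1 binds the same laminin. Migrating epithelium at a wound edge is known to lay down this laminin, while integrins with Itgav, Itga2 or Itga5 bind fibronectin, tenascin, vitronectin or collagen, and those with Itgb2 belong to leukocytes.

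The sequences below are the 250 bases before the RefSeq start of Lamb3 and Itgb1 (RefSeq, GRCm38.p6, written 5′ to 3′ on the gene's strand). They are shown because Lamb3 had the highest ratio of injured to uninjured epithelium among the members measured there, and Itgb1 is the subunit shared by most laminin receptors. Capitals mark matches to 2 searched motifs, the AP-1 site TGANTCA and the TEAD site GGAATG, on either strand. The Lamb3 window lies at chr1:193301744-193301993 (plus strand) and the Itgb1 window at chr8:128685404-128685653 (plus strand).
Lamb3: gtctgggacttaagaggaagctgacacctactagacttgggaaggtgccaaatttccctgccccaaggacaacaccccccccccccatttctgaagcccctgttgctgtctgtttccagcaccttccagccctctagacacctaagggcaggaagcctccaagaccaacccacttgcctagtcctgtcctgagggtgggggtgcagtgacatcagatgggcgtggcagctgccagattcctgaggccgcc
Itgb1: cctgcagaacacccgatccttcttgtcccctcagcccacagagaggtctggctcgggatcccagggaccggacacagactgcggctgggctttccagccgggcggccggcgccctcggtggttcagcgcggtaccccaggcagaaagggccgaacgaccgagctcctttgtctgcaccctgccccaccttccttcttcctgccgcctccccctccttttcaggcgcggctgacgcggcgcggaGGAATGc
Of the 36 members, 23 had an entry in the promoter table. An AP-1 match stood in 1 of these 23 windows (Itgax) and a TEAD match in 2 (Itga10, and Itgb1 at 7 bases before the start), against 6.85% and 12.6% of all 27025 windows of the same length. The Lamb3 window held neither string of letters.

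After filtering there were 11233 uninjured, 5800 saline and 4919 losartan cells, with medians of 11672, 4115 and 6060 unique molecular identifiers (UMIs, 1 per captured RNA molecule). Levels are given as CPM: the UMIs of a gene summed over the cells of a class in a library, per 1000000 UMIs of that class. Intervals are 95% ones, exact Poisson for levels, exact conditional binomial for ratios and Clopper-Pearson for shares of cells, and none covers more than counting error. As each group is a single library, the differences have no replicate check and no test between animals was possible. Every difference described is therefore a difference between libraries. A member was called higher or lower where it reached 10 CPM in at least 1 of the compared libraries and its ratio on the CPM + 5 scale was at least 1.5-fold. Classes were named from marker genes, with integrin and laminin genes kept out of the genes used for clustering. Pairs of libraries shared 21, 28 and 7 cell barcodes.

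Of the 36 genes, 35 reached 10 CPM in at least 1 of the 17 combinations of class and library with 20 or more cells. The exception was Itgad, a leukocyte alpha subunit, with a highest level of 2.46 CPM from 9 UMIs in neutrophil-like cells of the losartan library. Itgae passed on few counts, at most 11.9 CPM (2.45 to 34.8) from 3 UMIs in uninjured Schwann-like cells. The highest level lay in epithelial-like cells for 6 members: Itga2, Itga3, Itga6, Itgb4, Itgb6 and Lama3. It lay in mural-like cells for 6, in stromal fibroblast-like, macrophage- or monocyte-like and Schwann-like cells for 5 each, and in neutrophil-like, dendritic-like and vascular endothelial-like cells for 3 each. For Itga2b the Schwann-like level (19.8 CPM, 6.44 to 46.3) rests on 5 UMIs, beside 15.8 CPM from 2158 UMIs in uninjured epithelium. Epithelial-like cells of the saline library held 98.2% of that library's Itga6 UMIs, 98.8% of Itgb4 and 98.6% of Lama3, so these 3 genes were read almost wholly from epithelium. Lamb3 was unlike them, with 52.6% of its saline UMIs in epithelial-like cells.

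**Figure D1:**
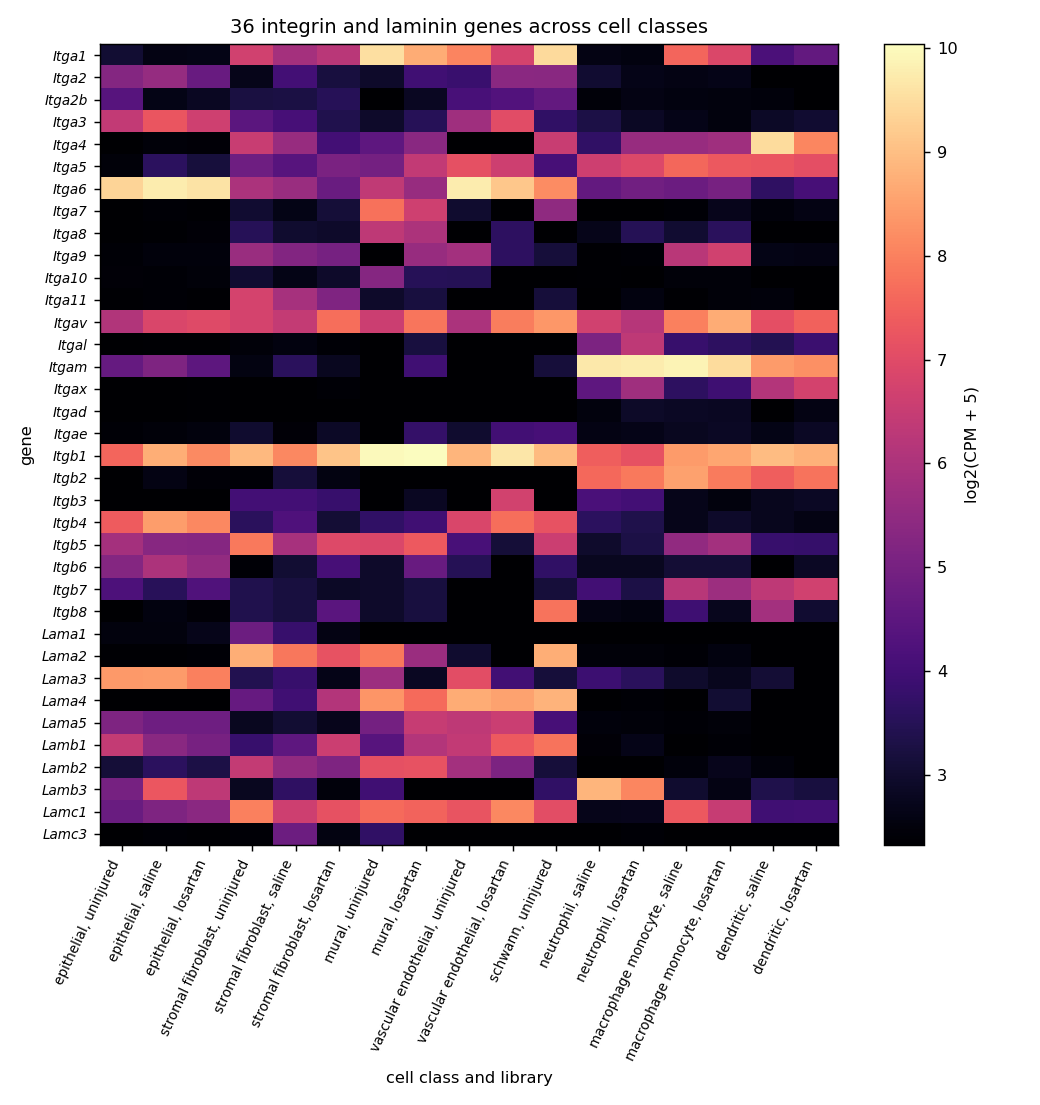
Level of each of the 36 genes (rows) in each cell class and library with at least 20 cells (columns), coloured by log2(CPM + 5) on 1 common scale. Lama3 is brightest in the epithelial columns, Itgam and Itgb2 in the immune columns, and Lamb3 is bright in both epithelial and neutrophil columns. Itgb4 is brightest in the saline and losartan epithelial columns. Its losartan vascular endothelial level (203 CPM) is above the uninjured epithelial one (159 CPM).

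In epithelial-like cells of the saline library, the laminin chain gene Lamb3 and genes of laminin receptors were higher than in the uninjured library: Itgb1, Itgb4 and Itga3, together with Itgav and Itgb6. The comparison rests on 9060 uninjured, 1101 saline and, for losartan, 1946 cells, with class totals of 137011462, 41154785 and 60248740 UMIs. Of 16 members measured, 6 were higher (19.4% of all 8713 measured genes were) and 3 were lower (17.5% of all genes). The median log2 ratio of the 16 members was 0.40, beside 0.01 for all measured genes. The other 20 members stayed below 10 CPM in all 3 libraries of the class, with Itga5, a fibronectin receptor subunit, nearest at 0.54, 7.24 and 3.98 CPM in the uninjured, saline and losartan libraries.

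Lamb3, the beta chain of the hemidesmosome laminin, stood at 27.1 CPM in uninjured, 151.8 in saline and 75.7 in losartan epithelium. Saline was 5.60-fold above uninjured (95% interval 5.37 to 5.83). Lama3, the alpha chain of the same laminin, did not share this difference. Its levels were 331, 343 and 252 CPM, and the ratio of saline to uninjured was 1.04 (1.02 to 1.06). Lama3 and Lamb3 therefore differed unequally between the libraries.

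Among the receptors, Itgb1, which pairs with many alpha subunits, was at 181 CPM uninjured, 416 saline and 282 losartan. The saline level was 2.30-fold above uninjured (2.25 to 2.34). Itgb4, the beta subunit of the hemidesmosome, was at 159, 345 and 276 CPM, which put saline 2.16-fold above uninjured (2.12 to 2.21). Both beta subunits were highest in saline and lowest in the uninjured library. Itga6, the partner of Itgb4, was at 660, 867 and 772 CPM, and its ratio of 1.32 (1.30 to 1.33) stayed under the 1.5-fold line. Itga3, the laminin-binding partner of Itgb1, was at 79.7, 147.1 and 94.5 CPM, 1.85-fold above uninjured in saline (1.79 to 1.90). Itga2, a collagen receptor subunit, was at 33.5, 43.1 and 21.2 CPM and was not called between saline and uninjured.

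The receptors of the provisional matrix were split. Itgav was at 63.9 CPM uninjured, 110.8 saline and 120.5 losartan, 1.74-fold above uninjured in saline (1.67 to 1.80). Itgb6, an epithelial partner of Itgav that binds latent TGF-beta, was at 33.1, 59.2 and 41.1 CPM, 1.79-fold above (1.70 to 1.88). Itgb5, another Itgav partner, ran the other way, at 53.1, 35.3 and 34.0 CPM, just short of the line (log2 difference −0.53). From saline to losartan, Itgb6 was 1.44-fold lower and Itgb5 was level (ratio 0.96, interval 0.90 to 1.03).

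The members lower in saline than in uninjured epithelium were Lamb1, Itga2b and Itgb7. Lamb1, a beta chain of other laminins, was at 82.4 CPM uninjured, 36.2 saline and 27.5 losartan, 2.28-fold lower in saline (2.16 to 2.40). Itga2b, known as the platelet subunit, was at 15.8, 1.26 and 2.06 CPM, 12.5-fold lower (9.47 to 16.7). Its platelet partner Itgb3 was below 10 CPM in epithelium of every library. Itgb7 was at 13.6, 6.71 and 14.3 CPM, 2.02-fold lower in saline (1.78 to 2.30). Of the remaining laminin chains, Lama5 was at 30.5, 23.8 and 23.6 CPM and Lamc1 at 21.8, 30.6 and 37.1 CPM, and neither was called in this comparison.

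**Figure D2:**
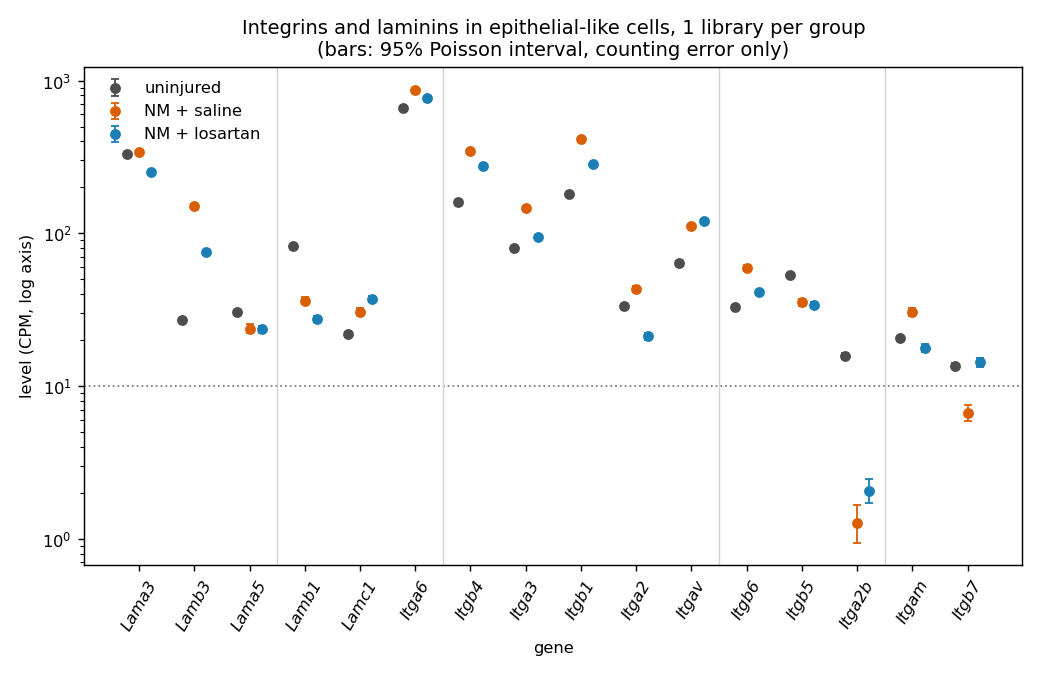
Level in CPM (log axis) of the 16 members measured in epithelial-like cells of the uninjured, NM + saline and NM + losartan libraries, with 95% Poisson bars and a dotted line at 10 CPM; each point is 1 library. The saline point lies highest for Lamb3, Itgb4, Itga3 and Itgb1, with losartan between it and uninjured, while Lamb1 and Itga2b are highest in the uninjured library.

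Epithelial-like cells of the uninjured and the injured libraries fell into different clusters, apart from 4 cells, so the levels above compare different clusters. No batch correction was made, and library and injury cannot be told apart. In the uninjured library, cluster 1 (led by Atf3 and Ccn1) held 25.5% of epithelial-like cells and cluster 2 (Frem2, Wnt3a) 24.1%. In the injured libraries, cluster 5 (Col18a1, Serpine2, Mmp10) held 31.1% of saline and 45.3% of losartan cells, cluster 7 (Sprr2f, Krt4, Krt19) 29.3% and 37.4%, and cluster 13 (Krt17, Tpm1) 39.5% and 17.2%. Cluster 13 was shallow, with a median of 1543 UMIs per saline cell against 52066.5 in cluster 5, and gave 3.30% of the saline class UMIs.

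Most member RNA of injured epithelium lay in cluster 5. It held 45.4% of the UMIs of saline epithelium but 91.0% of its Lamb3, 87.9% of Lama3, 91.4% of Itgb4 and 82.6% of Itga6 UMIs. In the losartan library the shares of cluster 5 were 92.2%, 87.9%, 93.8% and 80.2% for the same genes, at 51.5% of the UMIs. Itgav had 43.5% of saline and 42.8% of losartan UMIs in cluster 5, close to the share of all UMIs there. Itgb6 had 54.9% and 45.5%, while Itgb7 (23.9% and 33.5%) and Itgam (3.59% and 6.96%) lay mostly outside the cluster. Itga2 (94.0% of saline UMIs), Itga3 (94.2%), Lamb1 (95.8%) and Itgb1 (81.9%) also lay mostly in cluster 5. A large share there was thus not particular to the hemidesmosome genes, while Itgav, Itgb6, Itgb7 and Itgam had smaller shares. Levels within cluster 5 of the saline library were 304 CPM for Lamb3, 663 for Lama3, 693 for Itgb4 and 1577 for Itga6; in cluster 7 of the same library they were 18.8, 63.6, 44.8 and 273 CPM.

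The uninjured epithelium was graded in the same way. Cluster 10, whose leading genes Asprv1, Krt78 and Muc4 are known from superficial or cornifying epithelium, had 3.13 CPM of Itgb4, 8.19 of Itgb1, 2.70 of Itga3 and 0.69 of Lamb3, against 353, 322, 159 and 58.1 CPM in cluster 2. Itga6 was less steep, at 264 CPM in cluster 10 and 774 in cluster 2. Clusters 1 and 2 were near each other in Lama3 (511 and 556 CPM) and further apart in Lamb3 (34.8 and 58.1 CPM) and Itgb4 (208 and 353 CPM). The leading genes of cluster 1 (Atf3, Ccn1, Socs3) are immediate-early and stress genes, and the part of tissue dissociation in these levels was not tested. Cluster 15, led by Gpha2, a gene known from limbal stem cells, had 875 CPM of Itga6, 91.4 of Itgav and 64.4 of Lamb3, with cluster 2 next for Lamb3. Itga6 was not highest there. Cluster 1 held 45.9% of the Itga6 UMIs of uninjured epithelium at 28.0% of all its UMIs, and cluster 15 held 4.51% at 3.40%.

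Leukocyte integrin genes appeared in the superficial cluster without their usual partner. Itgam reached 109.9 CPM (2564 UMIs) and Itgb7 60.2 CPM (1405 UMIs) in uninjured cluster 10, against 0.24 to 10.1 CPM of Itgam in the other 6 uninjured epithelial clusters. Itgb2, the only beta subunit known to pair with Itgam, had 0 UMIs in cluster 10, where 3 UMIs would be 0.129 CPM. Of the Itgb7 partners Itga4 had 0 and Itgae 1 UMI. In cluster 10 the 18 macrophage or monocyte markers summed to 2522 CPM, of which Plac8 gave 2033 and Arg1 466 CPM, and 10 of the 18 were at 0 UMIs. The 15 neutrophil markers summed to 19.1 CPM with 9 at 0, and the 15 dendritic markers to 1.89 CPM with 10 at 0. Their part in the Itgam and Itgb7 levels was not tested. The same lean was present after injury, where Itgam was at 57.0 CPM in cluster 7 and 2.41 in cluster 5 of the saline library.

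**Figure D3:**
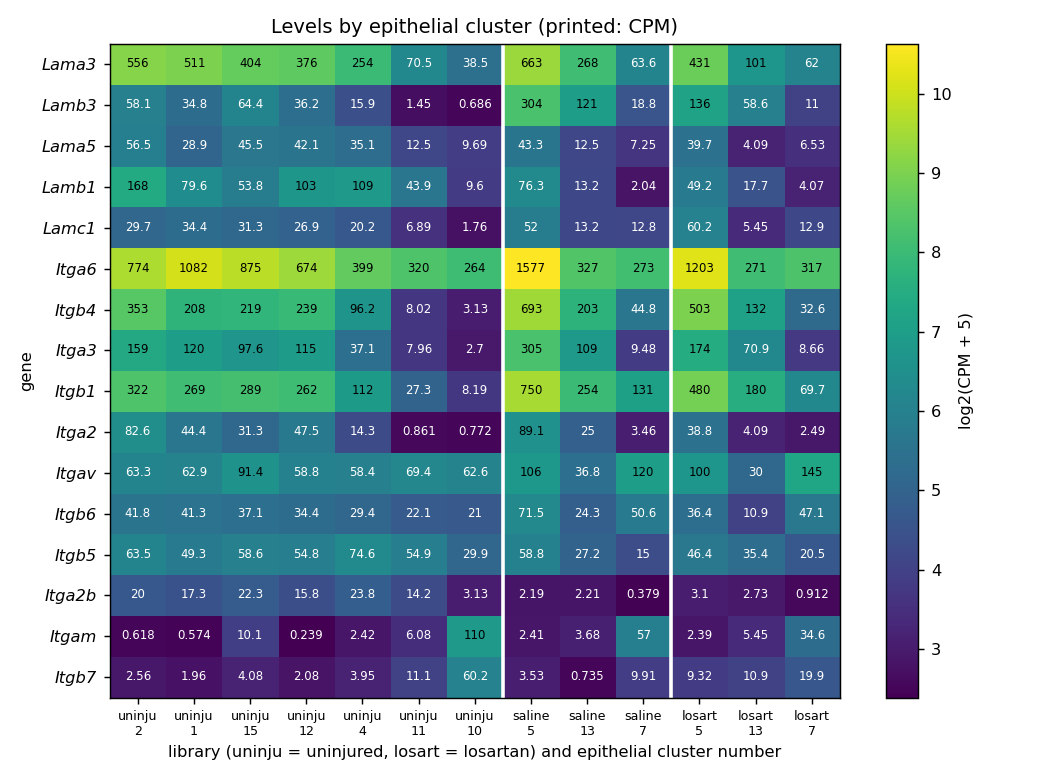
CPM of the 16 measured members (rows; values printed) in 7 uninjured and 3 injured epithelial clusters by library (columns), coloured by log2(CPM + 5); white lines part the libraries. Itgb4, Itgb1, Itga3, Lama3 and Lamb3 are high in uninjured clusters 2, 1, 15 and 12 and in injured cluster 5 and low in clusters 10, 11 and 7, and Itgam and Itgb7 are highest in clusters 10 and 7.

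The 4 partner lists place these genes among their neighbours. Of 8 hemidesmosome partners, all measured, 2 were higher and 1 lower in saline than in uninjured epithelium (median log2 ratio −0.21), against 19.4% and 17.5% of all measured genes, the shares to set beside all 4 lists. Krt14, a basal keratin, was at 1081 CPM uninjured and 12488 saline, and Cd151, a tetraspanin that binds laminin receptors, at 44.2 and 86.4 CPM. Dst, whose epithelial form links Itgb4 to keratin, was the lower one, at 448 and 206 CPM. Col17a1, the transmembrane collagen of the hemidesmosome, was at 1207 and 852 CPM and was not called. Receptor and laminin genes and their anchoring partners thus did not share 1 direction.

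Of 22 basement membrane partners 15 were measured, 5 higher and 5 lower (median −0.13). Col18a1 (0.58 to 142 CPM, uninjured to saline), Col4a1 (0.40 to 30.4) and Col4a2 (0.68 to 25.6) were furthest up. Fras1 (83.4 to 0.39 CPM), Frem2 (65.9 to 0.17) and Nid1 (17.6 to 4.01) were furthest down; Nid1 encodes nidogen, which ties laminin to collagen IV. Of 30 focal adhesion adaptors 22 were measured, with 5 higher, 4 lower and a median of 0.02, and Actn1, which links integrins to actin, was furthest up (1.96 to 211 CPM). Of 30 integrin ligands other than laminins 11 were measured, 6 higher and 2 lower (median 1.04). Tenascin-C, Tnc, was at 0.23 CPM uninjured and 190 saline, Ccn2 at 1.06 and 125, and fibronectin, Fn1, ran the other way at 107 and 12.9 CPM.

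In the losartan library, epithelial-like cells had lower levels of Lamb3, Itga2, Itga3 and Itgam than in the saline library, with Itgb7 higher. Of 15 members measured, 4 were lower (5.8% of all 8068 measured genes were) and 1 was higher (2.11% of all genes). The members' median log2 ratio was −0.34, beside −0.06 for all measured genes. Because both comparisons use the saline library, a low or high value there moves them in opposite directions.

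Lamb3 was at 151.8 CPM in saline and 75.7 in losartan, 2.01-fold lower (1.93 to 2.08). Lama3 was at 343 and 252 CPM, 1.36-fold lower (1.33 to 1.39), under the line. Lama3 was thus nearer between the treatments than Lamb3 over all epithelial-like cells. Itga2 was at 43.1 and 21.2 CPM, 2.04-fold lower (1.89 to 2.19), and Itga3 at 147.1 and 94.5 CPM, 1.56-fold lower (1.501 to 1.61). With median-of-ratios scaling Itga3 was under the line and 3 members were lower. Itgb1 was at 416 and 282 CPM, 1.47-fold lower (1.44 to 1.51), just under the line. Itgb4 (345 and 276 CPM) and Itga6 (867 and 772 CPM) differed by 1.25-fold (1.22 to 1.28) and 1.12-fold (1.11 to 1.14). Over all epithelial-like cells the hemidesmosome receptor genes were therefore closer between the treatments than Lamb3 and Lama3 were. This order did not hold in every cluster, as given below. Itgam was at 30.4 and 17.6 CPM, and Itgb7 at 6.71 and 14.3 CPM, 2.14-fold higher in losartan (1.86 to 2.45).

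Within cluster 5, 8 of 14 measured members were lower in losartan and 0 higher (5.65% of all 8527 genes were lower and 2.1% higher). Lamb3 went from 304 to 136 CPM, Lama3 from 663 to 431 and Itgb1 from 750 to 480 CPM, saline to losartan. The folds were 2.24 (2.16 to 2.33), 1.54 (1.502 to 1.58) and 1.56 (1.53 to 1.60). The other 5 were Itga2, Itga3, Itga5, Itgb6 and Lamb1. Itgb4 (693 to 503 CPM) and Itga6 (1577 to 1203 CPM) were not called. So the lower Lamb3 level was present between cells of 1 cluster, and Lama3 and Itgb1, not called over all epithelial-like cells, passed the line there.

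In cluster 7, where these genes are low, 2 of 11 measured members were lower (7.45% of all 7005 genes were) and 1 was higher (3.05%). Lama3 was at 63.6 and 61.95 CPM and Lamb3 at 18.8 and 11.02 CPM. Itgb4 was at 44.8 and 32.6 CPM, not called but further apart than Lama3. Itgb1 (131 and 69.7 CPM) and Itgam (57.0 and 34.6 CPM) were lower there and Itgb7 (9.91 and 19.9 CPM) higher. In the shallow cluster 13, 8 of 14 were lower (13.9% of all 7838 genes were) and 1 was higher (10.4%). Several of these calls rest on few UMIs, saline and losartan: Itga2 34 and 3, Lama5 17 and 3, Lamc1 18 and 4. The higher one, Itgb7, had 1 and 8 UMIs. The ratio intervals of Lama5 (0.0614 to 1.13) and Lamc1 (0.101 to 1.25) include 1. Lama3 was among the lower ones, with 268 CPM from 364 UMIs in saline and 101 CPM from 74 UMIs in losartan. Lamb3 (121 and 58.6 CPM) and Itgb4 (203 and 132 CPM) were lower there too. The folds were 2.65 for Lama3, 2.07 for Lamb3 and 1.54 for Itgb4. Lamb3 was lower in losartan in each of the 3 clusters, by less than the line in cluster 7.

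**Figure D4:**
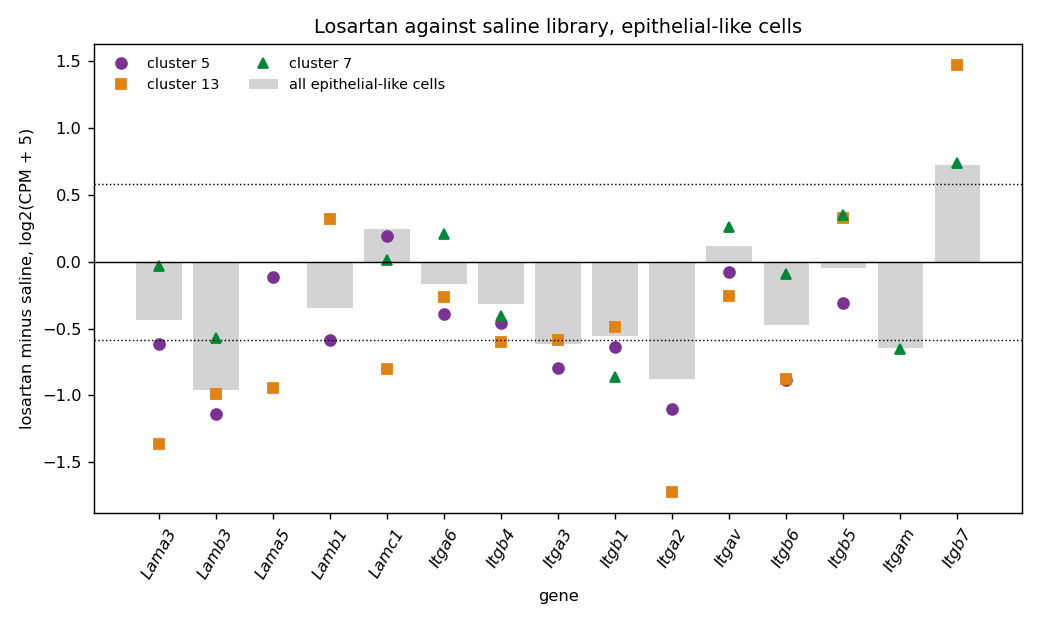
Difference between the losartan and saline libraries, log2(CPM + 5), for 15 measured members in all epithelial-like cells (grey bars) and within injured clusters 5, 13 and 7 (coloured marks, where measured); dotted lines mark 1.5-fold. The bars of Lamb3 and Itga2 lie lowest, the cluster 7 marks of Lama3 and Lamb3 lie nearer 0 than their bars, and Itgb7 is above 0.

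Cell by cell, Lama3 and Lamb3 were detected together in 27.4% of uninjured, 38.7% of saline and 44.6% of losartan epithelial-like cells, but median depths differed (13542, 12179 and 29987 UMIs). With every cell thinned to 1500 UMIs the shares were 3.06% (exact 95% interval 2.71 to 3.44), 10.9% (8.86 to 13.1) and 5.77% (4.73 to 6.96), leaving out 263, 235 and 179 shallower cells. The order of saline and losartan thus turned once depth was made equal. In stromal fibroblast-like cells, which should lack this pair, it was found in 0 of 685 saline cells and 1 of 691 losartan cells before thinning, at median depths of 2793 and 10157 UMIs. Itga6 with Itgb4 was found in 16.7%, 25.8% and 21.2% of thinned epithelial-like cells (62.4%, 46.1% and 53.3% unthinned), and in 1 of 632 thinned stromal cells of the saline library.

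Between the treatments, 5.8% of all measured epithelial genes were lower and 2.11% higher in losartan. Of the hemidesmosome partners 0 were higher and 1 of 8 lower in losartan epithelium, Cd151 at 86.4 and 50.8 CPM, while Col17a1 (852 and 986 CPM) and Krt14 (12488 and 11120 CPM) were not called. Of 12 basement membrane partners measured, the lower 2 were the collagen IV genes Col4a1 (30.4 and 9.25 CPM) and Col4a2 (25.6 and 8.91 CPM). Of 21 focal adhesion adaptors 2 were lower, Actn1 (211 and 137 CPM) and the kinase Ptk2b (40.0 and 24.8 CPM). Of 11 other ligands 3 were lower, Spp1 (22.4 and 2.29 CPM), Ccn2 (125 and 36.2 CPM) and Tnc (190 and 88.8 CPM), and Ccn1 was higher (22.6 and 42.0 CPM). Medians of these 4 lists were −0.12, −0.32, −0.23 and −0.23.

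Markers of other cell types moved with these comparisons in part. The 15 neutrophil markers summed to 5.95 CPM in uninjured, 195 in saline and 80.4 in losartan epithelium, against 45438 and 50922 CPM in neutrophil-like cells of the saline and losartan libraries. Of the called members, Lamb3 (454 CPM), Itgam (826 CPM) and Itgb7 (11.1 CPM) were above their epithelial levels in saline neutrophil-like cells. In saline macrophage- or monocyte-like cells those above were Itgam (941 CPM), Itgav (250 CPM) and Itgb7 (70.0 CPM). The 18 macrophage or monocyte markers summed to 736, 2235 and 1113 CPM, with 3 at 10 CPM or more in each library; Arg1 gave 99.1, 1795 and 876 CPM of these and Plac8 540, 361 and 186 CPM. The 15 dendritic markers summed to 50.5, 210 and 216 CPM, mostly Fscn1 (47.3, 187 and 199 CPM). The 11 Schwann markers summed to 3254, 3782 and 3176 CPM, mostly Mal (3109, 3621 and 3027 CPM). The part of these markers' cells in the results was not tested. The 18 stromal markers summed to 88.3, 85.3 and 88.0 CPM.

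Stromal fibroblast-like cells fell into clusters that were held unequally by the 3 libraries. The class held 396 uninjured, 685 saline and 691 losartan cells with 4051829, 2331357 and 10776917 UMIs. Cluster 16, led by the keratocyte gene Kera, held 94.2% of uninjured cells, cluster 9 (Mfap4, Apod, Dcn) 97.7% of saline cells, and cluster 17 (Mmp3, Timp1, Col3a1) 51.5% of losartan cells, beside 44.6% in cluster 9. Only 15 saline cells lay in cluster 17, yet these gave 17.4% of the saline class UMIs, at a median of 25152 UMIs per cell against 2769 in cluster 9. The pooled stromal levels of the 3 libraries thus come from different mixtures of clusters.

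Between saline and uninjured stroma, 10 of 20 measured members were lower (36.1% of all 9696 genes were) and 4 higher (12.9%). All measured genes had a median log2 ratio of −0.39, and the members −0.60. With median-of-ratios scaling 2 members were lower and 4 higher, beside 13.1% and 22.6% of all genes. Lama2, an alpha chain of mesenchymal and muscle laminins, was at 420 CPM uninjured, 226 saline and 140 losartan, and Lamc1, its gamma partner, at 254, 93.1 and 140 CPM. Itgb5 was at 230, 55.8 and 119 CPM and Itgb1 at 478, 274 and 546 CPM, so saline was lowest for both. The collagen receptor subunits Itga1 (97.0, 52.8 and 71.7 CPM) and Itga11 (103, 54.5 and 31.4 CPM), and Itga4 (88.1, 44.2 and 11.3 CPM), Lama1 (23.2, 9.01 and 1.11), Lama4 (20.98, 10.7 and 65.3) and Lamb2 (81.2, 40.7 and 30.6) were the other lower members in saline.

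The higher members in saline stroma were Lamc3, Lamb1, Itga2 and Itgb4. Lamc3, a gamma chain of other basement membranes, was at 0.25 CPM (1 UMI) uninjured, 23.2 CPM (54 UMIs) saline and 1.02 CPM (11 UMIs) losartan, a ratio of 93.9 with a counting interval of 16.1 to 3775. Lamb1 was at 9.13, 18.4 and 90.9 CPM. Itga2 (1.48, 11.2 and 4.18 CPM) and Itgb4 (6.91, 13.7 and 3.43 CPM) are epithelial genes at no more than 32 UMIs in the saline class. In this class 30 epithelial markers summed to 5533, 2348 and 1968 CPM in the 3 libraries. Single epithelial genes differed in direction, with Krt12 at 828, 30.5 and 90.8 CPM and Krt14 at 30.1, 179 and 95.6 CPM. The part of epithelial RNA in Itga2 and Itgb4 was not tested. The direction of Lamb1 in this comparison turned when doublets were kept, when every cell had equal weight and when cells were thinned; that of Itgb4 turned with doublets kept (−0.84), and that of Itga2 when thinned (−0.48).

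Between losartan and saline stroma, 8 of 21 measured members were higher (34.4% of all 9424 genes were) and 8 lower (17.8%), with medians of −0.20 for the members and 0.29 for all genes. With median-of-ratios scaling 7 members were higher and 10 lower, beside 18.2% and 28.3% of all genes. Lama4, which mesenchyme also makes, was at 10.7 CPM saline and 65.3 losartan, 6.09-fold higher (4.09 to 9.48), and Lamb1 at 18.4 and 90.9 CPM, 4.93-fold (3.63 to 6.86). Itgav (81.5 and 202 CPM), Itgb1, Itgb5, Itga5 (15.9 and 29.0), Itgb6 (3.43 and 11.97) and Itgb8 (4.29 and 16.7) were the other higher members. The lower ones were Itga2, Itga3 (12.01 and 5.57), Itga4, Itga6 (45.5 and 21.7), Itga11, Itgb4, Lama2 and Lamc3. Of these, Itga2, Itga3, Itga6 and Itgb4 are also epithelial genes, and the epithelial genes Krt14 (179 and 95.6 CPM) and Krt12 (30.5 and 90.8 CPM) differed in opposite directions between the saline and losartan stromal classes. Krt14 was found in 44.8% and 71.2% of their cells at the median depths of 2793 and 10157 UMIs; the part of epithelial RNA in the 4 genes was not tested. The direction of Itga3 turned with doublets kept (0.17), at resolution 0.4 (0.15) and with the members among the clustering genes (0.18), and that of Itga2 with equal cell weights (0.45) and thinned (0.41).

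Within single clusters the counts were different. Within cluster 9, 0 of 17 measured members were higher in losartan (11.9% of all genes were) and 6 were lower (24.3%). Lama4 (8 UMIs, 4.17 CPM) and Lamb1 (2 UMIs, 1.04 CPM) were scarce in saline cells of cluster 9. Both had 0 UMIs in losartan, where 3 UMIs would be 4.26 CPM, so no difference was detectable at this depth. Itgav was at 45.9 and 32.7 and Itgb1 at 139.7 and 143.6 CPM. In cluster 17, the 15 saline and 356 losartan cells were near each other in Lamb1 (100.9 and 98.7 CPM) and Itgav (244 and 215 CPM), while Itgb1 was lower in losartan (908 and 579.5 CPM) and Lama4 higher (27.1 CPM from 11 UMIs and 69.2 CPM). Cluster 17 held 98.4% of the Lamb1, 96.0% of the Lama4 and 96.3% of the Itgav UMIs of losartan stroma. For Lamb1 and Itgav the pooled difference therefore goes with the share of class UMIs in cluster 17, 17.4% in saline and 90.7% in losartan. Its shares of cells were 2.19% and 51.5%.

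**Figure D5:**
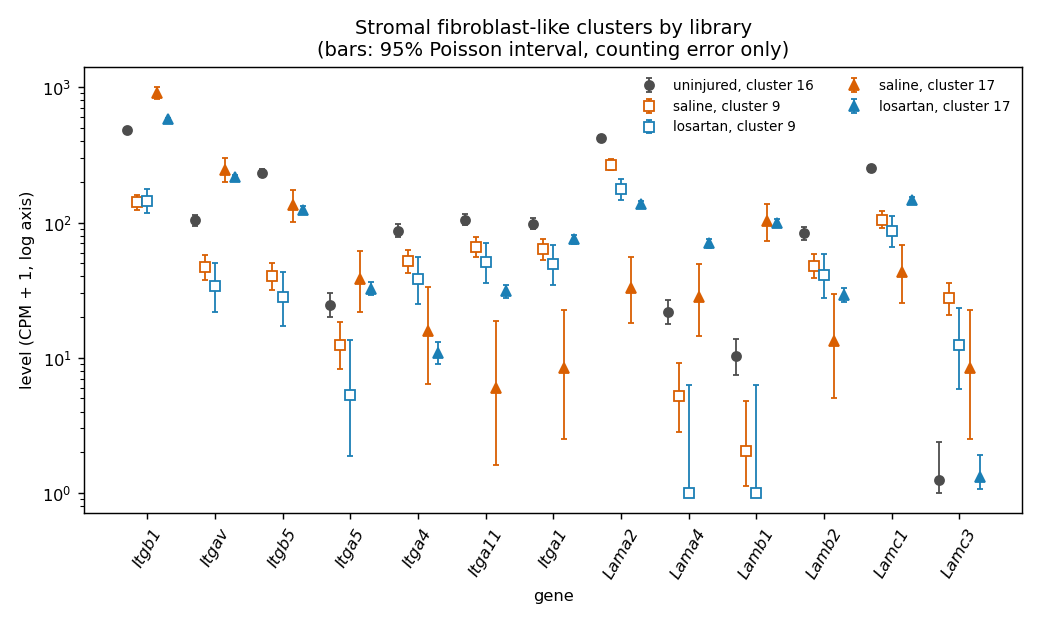
Level (CPM + 1, log axis, 95% Poisson bars) of 13 members in uninjured cluster 16, cluster 9 of the saline and losartan libraries (open squares) and cluster 17 of both (triangles; 15 saline and 356 losartan cells). Itgb1, Itgav, Itgb5, Lama4 and Lamb1 are low in cluster 9 and higher in cluster 17 for both libraries, while Lama2 and Lamc3 are higher in cluster 9.

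Lamb3 in neutrophil-like cells is uncertain as a laminin measurement. It was at 454 CPM in 3061 saline cells and 267 CPM in 1385 losartan cells, above its epithelial level in each, while Lama3 was at 10.1 and 6.83 CPM. The GENCODE M 21 gene model of Lamb3 spans chr1:193207699-193343878 (plus strand, GRCm38) and covers G0s2 (chr1:193272161-193273217) and Hsd11b1 on the opposite strand. Of its 9 transcript models 5 begin upstream of the RefSeq window printed above, among them a processed transcript, Lamb3-207, that starts 121 bases from the start of G0s2. G0s2, a gene of resting and inflammatory cells, was at 3436 and 3424 CPM in the same neutrophil-like cells. The use of strand in counting is not stated in the sources used here, and the part of the overlapped genes' reads in the Lamb3 counts was not tested.

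Lamb3 and G0s2 were set side by side in the same cells, without matching depth. Lamb3 was found in 74.3% of saline neutrophil-like cells with a G0s2 UMI and in 50.1% of those without; in losartan the shares were 45.5% and 18.9%. Lamb3 UMIs came to 13.2% of G0s2 UMIs in neutrophil-like and 13.2% in macrophage-like cells of the saline library (7.80% and 20.8% in losartan, the last from 5 Lamb3 UMIs). This percentage was not constant across classes. In stromal fibroblast-like cells it was 7.55% uninjured, 24.7% saline and 1.48% losartan, from 8, 18 and 6 Lamb3 UMIs. Saline dendritic-like cells had 81.8%, from 9 Lamb3 UMIs. Saline stromal cells with a G0s2 UMI held Lamb3 in 0% and the others in 2.91%. Levels did not follow each other across neutrophil clusters: saline cluster 0 had 491 CPM of Lamb3 and 2711 of G0s2, and saline cluster 3 had 362 and 5268 CPM. In epithelial-like cells Lamb3 was found in 61.0% of saline cells with a G0s2 UMI and 36.5% of the others (63.2% and 46.3% in losartan, 50% and 28.0% uninjured). There the UMIs numbered 6247 of Lamb3 and 358 of G0s2 in saline, 4558 and 108 in losartan, and 3715 and 107 in the uninjured library. G0s2 stood at 0.78, 8.70 and 1.79 CPM in uninjured, saline and losartan epithelium, the same order of libraries as Lamb3.

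Among leukocyte integrins, Itgam and Itgb2, which together form the complement receptor of phagocytes, were at 826 and 189 CPM in saline and 859 and 231 CPM in losartan neutrophil-like cells. Of 13 members measured in this class 3 were higher in losartan (12.4% of all 6190 genes were) and 2 lower (6.87%). Itga4 was at 8.01 and 44.2 CPM, Itgal at 29.3 and 76.7 and Itgax at 18.3 and 49.7 CPM, saline to losartan. Lamb3 and Itgb7 (11.1 and 4.91 CPM) were the lower ones. By cluster, Lamb3 was at 491 and 445 CPM in cluster 0 and at 362 and 222 CPM in cluster 3, saline to losartan. Cluster 3, led by Lrg1, Retnlg and Cxcr2, held 868 of 3061 saline and 1120 of 1385 losartan cells, and within it Itga4 was at 15.0 and 53.7, Itgal at 54.5 and 88.7 and Itgax at 24.8 and 55.8 CPM. All 3 stayed higher in losartan within that cluster. Itgam ran the other way there, at 1496 and 911 CPM, which the pooled class did not show.

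In macrophage- or monocyte-like cells 4 of 14 measured members were lower in losartan (4.5% of all 7889 genes were) and 1 higher (5.83%). Itgav was the higher one, at 250 CPM saline and 407 losartan, 1.63-fold (1.53 to 1.73). Itgb2 (361 and 239 CPM), Itga1 (182 and 114), Lamc1 (155 and 86.2) and Itgb8 (10.1 and 1.79) were lower. In dendritic-like cells, 92 in saline and 63 in losartan, 2 of 12 were lower (12.8% of all 7576 genes were) and 1 was higher (10.8%). Itga4, which pairs with Itgb1 or Itgb7 for tissue homing, was at 713 and 267 CPM, 2.67-fold lower (2.33 to 3.08). Itgb8, which with Itgav activates TGF-beta, was at 52.4 CPM (88 UMIs) and 3.25 CPM (3 UMIs), a ratio of 0.0621 (0.0126 to 0.187), and Itgax, the dendritic cell subunit, at 65.5 and 103 CPM. Itgb8 was thus lower in losartan in the macrophage- or monocyte-like and dendritic-like classes. In neutrophil-like cells it was under 10 CPM in both libraries (1.06 CPM saline and 0.82 losartan).

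Vessel- and nerve-associated classes were small and, where 2 libraries held them, lay mostly in different clusters: the 34 uninjured endothelial-like cells in cluster 29 and the 21 losartan ones in cluster 30, and the mural-like cells in clusters 24 (62 of 85 uninjured) and 28 (38 of 45 losartan). Library and cluster cannot be told apart there. Lama4, a vessel laminin chain, was at 413 CPM in 34 uninjured and 370 CPM in 21 losartan vascular endothelial-like cells, with Itga6 at 861 and 562 CPM. Itgb4 was at 111 and 203 CPM in the same cells. Itgb3, an endothelial partner of Itgav, had 0 UMIs in the uninjured and 27 UMIs (99.8 CPM, 65.7 to 145) in the losartan endothelial-like cells. Mural-like cells, 85 uninjured and 45 losartan, had Itgb1 at 987 and 1050, Itga1 at 740 and 415 and Itga7, a muscle laminin receptor, at 213 and 95.3 CPM. The 88 Schwann-like cells of the uninjured library had Itga1 at 690, Lama4 at 444, Lama2 at 416, Itga6 at 285 and Itgb8 at 218 CPM. Lama2 was therefore at similar levels in uninjured Schwann-like and stromal cells (416 and 420 CPM).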

How the data were processed

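For each library the authors deposited UMI counts of 32285 genes in called barcodes. The file headers name Cell Ranger 8.0.0, and the build is GRCm38 per the submitters' processing notes. Whether reads in introns were counted, and on which strand, is not given in the sources used here. Cells with at least 500 genes and at most 20% mitochondrial UMIs were kept, and doublets scored against simulated pairs were removed at 0.8% per 1000 barcodes (1334, 334 and 243 cells). Counts were scaled to 10000, and 2000 variable genes without integrin and laminin genes, 30 principal components and 20 neighbours gave Leiden clusters at resolution 0.8 (scanpy 1.11.5, leidenalg 0.10.2, no batch correction). Clusters of 60 to 499 cells with mixed scores were clustered again. Names came from 16 marker lists, with at least 3 detected markers and a score of at least 0.3. The naming steps were set after seeing clusters. In all 8 clusters stayed unnamed and out of the comparisons, 2 of them shallow ones that scored as epithelial. The members and lists were chosen with earlier results of these data known. Of 37 genes that met the naming rule 1 is not reported here, and counts are over the other 36, all accounted for; those described had at least 10 CPM and a 1.5-fold difference on CPM + 5, or are Itga6, Itgb4, Lama3, Lamb3 or Itgb1, and from each partner list the 3 furthest genes in each direction were considered. The code for calls was tested on simulated data. Alternatives covered scaling, level minimum, pseudocount, doublets, cell filter, resolution, clustering genes, cell weight and depth; those on unnamed clusters, the shallow cluster, cluster weights and single stromal clusters, and the co-detection of Lama3 with Lamb3, were chosen after seeing the data. Positions are from GENCODE M 21.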

Additional observations from a re-analysis of the deposited data

Results flagged for a closer look

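Itgb1 and Lamb1 were called in opposite directions in epithelial-like and stromal fibroblast-like cells between the saline and uninjured libraries, which is why they are listed here. The difference between the classes was not tested. Itgb1 had a log2 difference of 1.18 in epithelial-like and −0.79 in stromal fibroblast-like cells, the latter under the 1.5-fold line with median-of-ratios scaling (−0.34), doublets kept (−0.11), resolution 0.4 (−0.18) and the members among the clustering genes (−0.18). Lamb1 had −1.08 in epithelial-like and 0.73 in stromal fibroblast-like cells; 95.3% of the stromal Lamb1 UMIs of the saline library came from the 15 cells of cluster 17, and the stromal direction turned with doublets kept (−0.024), equal cell weights (−0.98) and thinning (−1.33).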

How the results depend on the processing

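No paired analysis was possible because each group is 1 library, and for the same reason no library could be left out. Of 94 counts of members called under an alternative, 82 stayed within 1.5 times the reported count. In epithelial-like cells, 108 of 108 single-gene log2 differences between saline and uninjured kept their direction, as did 79 of 80 between losartan and saline; the exception was Itgam at 0.27 within cluster 13. Over all epithelial-like cells, 7 members in place of 4 were lower in losartan than in saline when cells with at least 200 genes were kept. Over both classes, 354 of 518 single-gene values moved no further than the counting interval reaches. Another 143 kept their direction but moved further, and 21 turned. In stromal fibroblast-like cells, 146 of 154 and 164 of 176 kept their direction. Between saline and uninjured, 2 members in place of 10 were lower with median-of-ratios scaling. The higher members, 4 as reported, numbered 8 with no minimum level, 2 with at least 200 genes, 2 at resolution 0.4 and 1 with cells thinned to 1500 UMIs. With doublets kept, Itgb4 turned to −0.84 and Lamb1 to −0.024; with equal cell weights Lamb1 was at −0.98; thinned, Lamb1 was at −1.33, Itga2 at −0.48 and Lama1 at 0.068. In cluster 9 alone, which held 23 uninjured cells, Itga11 turned to 1.25 and Lamb2 to 3.38. Between losartan and saline, the lower stromal members, 8 as reported, numbered 5 with equal cell weights, 5 thinned, 4 with doublets kept, 4 at resolution 0.4 and 4 with the members among the clustering genes; in the last 3 settings Itga3 turned to 0.17, 0.15 and 0.18. Itga2 turned to 0.45 with equal cell weights and 0.41 thinned. In cluster 9 alone the higher members numbered 0 in place of 8, with Itga5 at −0.83, Itgav at −0.43, Itgb5 at −0.46, Itgb8 at −0.67, Lama4 at −0.88, Lamb1 at −0.27 and Itgb4 at 0.16. Apart from the cluster 9 values, whose setting leaves out cluster 17, the cause was not tested. Depth limits the stromal values, since the saline class held 2331357 UMIs; the cluster 9 values of Lama4 and Lamb1 rest on 8 and 2 saline UMIs and 0 losartan UMIs, so their direction is not resolved.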
